A study of Mus musculus with 3 samples.

Results

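Collagen chain genes were examined in RNA of mouse dural cells. The group holds every protein-coding gene whose symbol has the form Col, a type number, the letter a and a chain number, and 44 of the 54532 genes in the files met it. The cells were taken from dura mater, the tough outermost covering of the brain, in mice that had received 4T1-DM cells. These make a dural metastasis model, and 4T1 is a mouse mammary carcinoma line. All 3 groups carried these tumour cells and differed by treatment, which was PBS, ZOL or ZOL+Ang2, names the labels do not expand. The labels give no strain, age, sex or dose. Dorsal dura was taken on day 12, digested with collagenase VIII and DNase I, and described as cells negative for CD45 and positive for CD31 and PDPN, a combination used for lymphatic endothelium. Each group was 1 library from 6 pooled mice, so there was no replicate, no test was possible, and each difference below is a difference between 2 libraries.

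Collagens are secreted proteins of 3 chains wound into a triple helix, which needs a glycine at regular steps of 3 residues. Fibrillar collagens (types I, II, III, V, XI, XXIV and XXVII) have a long unbroken helix and build the cable-like fibrils of connective tissue. Type IV forms the sheet of basement membranes, on which endothelium sits, and its helix is broken many times. Type VI makes beaded microfilaments between fibrils and basement membranes, and the remaining types decorate fibrils, span the cell membrane or anchor basement membranes. In dura, fibroblasts are known as the main makers of fibrillar collagen, and endothelial and mural cells as makers of type IV collagen.

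The glycine repeat can be read directly from the coding sequences. The stretches set the start of the longest run (Col1a1, Col1a2, Col3a1 and Col6a1) beside the end of the longest run (Col4a1, Col4a2 and Col18a1). Each is 90 bases, or 30 codons, of the coding sequence in GENCODE M21 (build mm10), 5′ to 3′, and capitals mark glycine codons that lie 3 codons from another glycine codon.
Col1a1, chromosome 11, codons 168 to 197: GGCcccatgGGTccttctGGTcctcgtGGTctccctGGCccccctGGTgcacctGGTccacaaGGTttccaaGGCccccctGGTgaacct
Col1a2, chromosome 6, codons 97 to 126: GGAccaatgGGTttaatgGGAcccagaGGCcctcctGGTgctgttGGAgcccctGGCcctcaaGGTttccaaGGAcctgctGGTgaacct
Col3a1, chromosome 1, codons 164 to 193: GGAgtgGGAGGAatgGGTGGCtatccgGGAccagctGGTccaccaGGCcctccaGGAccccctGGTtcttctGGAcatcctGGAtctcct
Col6a1, chromosome 10, codons 256 to 285: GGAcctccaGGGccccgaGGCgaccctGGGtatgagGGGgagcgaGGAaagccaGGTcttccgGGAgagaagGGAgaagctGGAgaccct
Col4a1, chromosome 8, codons 151 to 180: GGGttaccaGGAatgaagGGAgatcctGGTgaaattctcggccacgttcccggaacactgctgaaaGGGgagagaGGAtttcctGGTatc
Col4a2, chromosome 8, codons 963 to 992: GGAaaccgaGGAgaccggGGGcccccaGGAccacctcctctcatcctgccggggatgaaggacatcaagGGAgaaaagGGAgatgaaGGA
Col18a1, chromosome 10, codons 1031 to 1060: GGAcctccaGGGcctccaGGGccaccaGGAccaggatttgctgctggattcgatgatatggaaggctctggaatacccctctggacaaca
The capitals return every 9 bases throughout the Col1a1, Col1a2 and Col6a1 stretches and break off midway in those of Col4a1, Col4a2 and Col18a1, to resume within the stretch in Col4a1 and Col4a2. That contrast follows from where the stretches were taken, and the chains are compared by run length below. Col3a1 begins its run with additional glycines. Counted over the whole coding sequence, the longest unbroken run was 338 glycine triplets in Col1a1, 339 in Col1a2 and 344 in Col3a1. It was 87 triplets in Col6a1, 40 in Col4a1, 66 in Col4a2 and 30 in Col18a1. Over the 11 fibrillar genes it ranged from 216 to 344 with a median of 338, and over the 6 type IV genes from 39 to 66 with a median of 43.5.

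The depth behind these values differed between libraries. RPKM, the deposited unit, is reads per length and depth, and the reads recovered from it numbered 1675532 for PBS, 16586760 for ZOL and 9204901 for ZOL+Ang2. Counting error is therefore widest for PBS. Triplets of values here and below stand in the order PBS, ZOL, ZOL+Ang2. In the deposited values, 1 read over 1 kilobase of exon was worth 0.893, 0.0422 and 0.0853 RPKM. The depth implied by that worth was below the recovered reads in PBS and above them in ZOL and ZOL+Ang2. The reason was not tested, and values of all 3 libraries on the deposited scale carry this mismatch, in 1 direction for PBS and in the other for ZOL and ZOL+Ang2. The PBS library also stood apart in make-up, since mitochondrially encoded genes held 12.1%, 1.52% and 1.19% of reads, and odour and pheromone receptor genes 2.69%, 0.0477% and 0.144%. The markers of the labelled cells were uneven. Pecam1, which encodes CD31, stood at 1.08, 475 and 177 CPM (reads scaled for depth with TMM factors and not divided by length), and Pdpn at 18.8, 67.5 and 171. The lymphatic markers Prox1 and Lyve1 had 2 reads or none in each library. Other lymphatic markers had reads, with Mmrn1 at 155, 11.5 and 12.0 CPM, Reln at 99.6, 8.60 and 7.87, and Flt4 at 0.538, 70.9 and 23.8. Itga9 stood at 22.6, 13.0 and 0 CPM and Ccl21a at 0, 11.1 and 3.88. Ptprc, which encodes CD45, stood at 156, 25.1 and 76.1 CPM.

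Collagen RNA made up a larger part of the ZOL+Ang2 library than of the others. The 44 genes held 0.0987% of PBS reads (exact 95% binomial interval 0.0940 to 0.104), 0.187% of ZOL reads (0.185 to 0.189) and 1.36% of ZOL+Ang2 reads (1.356 to 1.371). These intervals and those below cover counting error only. They treat each read as independent, and amplified reads are not independent molecules, so the intervals can be too narrow even for that error. Reads fell on 31, 40 and 30 of the 44 genes. At least 10 CPM were reached by 21, 17 and 18 genes, and at least 100 CPM by 1, 5 and 14. The excess of ZOL+Ang2 thus lay in the height of some chains and not in the number of chains detected. Levels in bulk RNA are shares of a library, so fewer cells of a type and less RNA per cell cannot be told apart.

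The kind of collagen also differed between libraries. Summed RPKM, which is per length and so can be added over chains, was 194, 176 and 1337. RPKM is compared here within a library, since it carries no TMM factor and its implied depth differs from the recovered reads, as given above. In CPM the same genes summed to 890.1, 1979.5 and 14313, so PBS was above ZOL in RPKM and below it in CPM. In ZOL, type IV was the leading class with 38.5% of that sum, followed by the multiplexins (types XV and XVIII) with 16.8%, the short-chain network types VIII and X with 13.2% and fibrillar chains with 11.8%. In ZOL+Ang2, fibrillar chains held 70.7% and type VI 20.4%, and type IV 5.14%. PBS was mixed, with 43.2% fibrillar, 18.1% fibril-associated and 17.5% type IV. The top 3 chains per length were Col4a2, Col4a1 and Col18a1 in ZOL (32.1, 30.8 and 29.4 RPKM) and Col1a1, Col1a2 and Col3a1 in ZOL+Ang2 (488, 201 and 193 RPKM). In PBS they were Col1a1, Col4a1 and Col3a1 (47.7, 16.6 and 15.2 RPKM), followed by Col28a1 and Col9a1 (15.1 and 14.4), a beaded-filament and a cartilage chain.

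**Figure D1:**
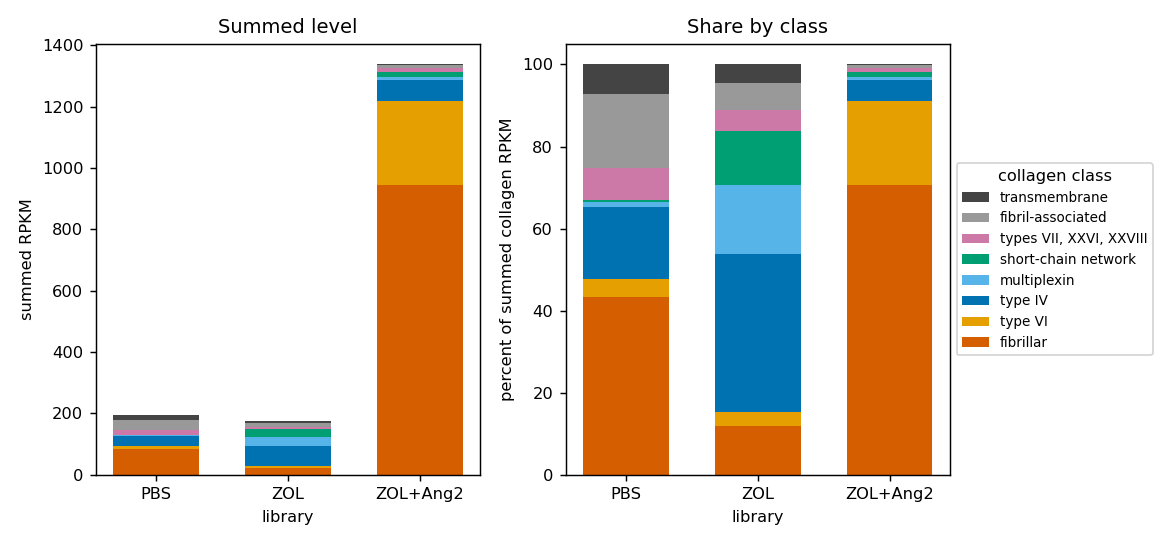
Summed RPKM of the 44 collagen chain genes by class in each library (left) and the same sums as percentages (right), 1 library per bar and no error bars because there are no replicates. The type IV sum is nearly the same height in ZOL (67.9 RPKM) and ZOL+Ang2 (68.7 RPKM), whereas the fibrillar sum goes from 20.8 to 945 RPKM.

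The type IV sum was 33.9, 67.9 and 68.7 RPKM, or 159, 725 and 637 CPM. The fibrillar sum was 83.9, 20.8 and 945 RPKM, and the type VI sum 8.54, 6.34 and 272. In CPM the fibrillar class summed to 411, 301 and 10908 and type VI to 52.2, 65.4 and 2131. The gap between PBS and ZOL was thus smaller for the fibrillar class and turned for type VI, while ZOL+Ang2 was highest on both scales. The smaller type IV share in ZOL+Ang2 came with higher fibrillar and type VI sums and a type IV sum near that of ZOL in RPKM and below it in CPM. The multiplexin sum was 2.80, 29.6 and 11.2 RPKM and the short-chain sum 0.684, 23.3 and 17.2. The order of the libraries for both was the same in CPM. The transmembrane sum was 13.9, 7.87 and 1.10 RPKM, or 64.0, 69.8 and 12.3 CPM. The order of PBS and ZOL for that class thus depended on the scale. The fibril-associated sum was highest in PBS in RPKM (35.1, 11.7 and 11.8) and in ZOL+Ang2 in CPM (144, 99.95 and 204).

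**Figure D2:**
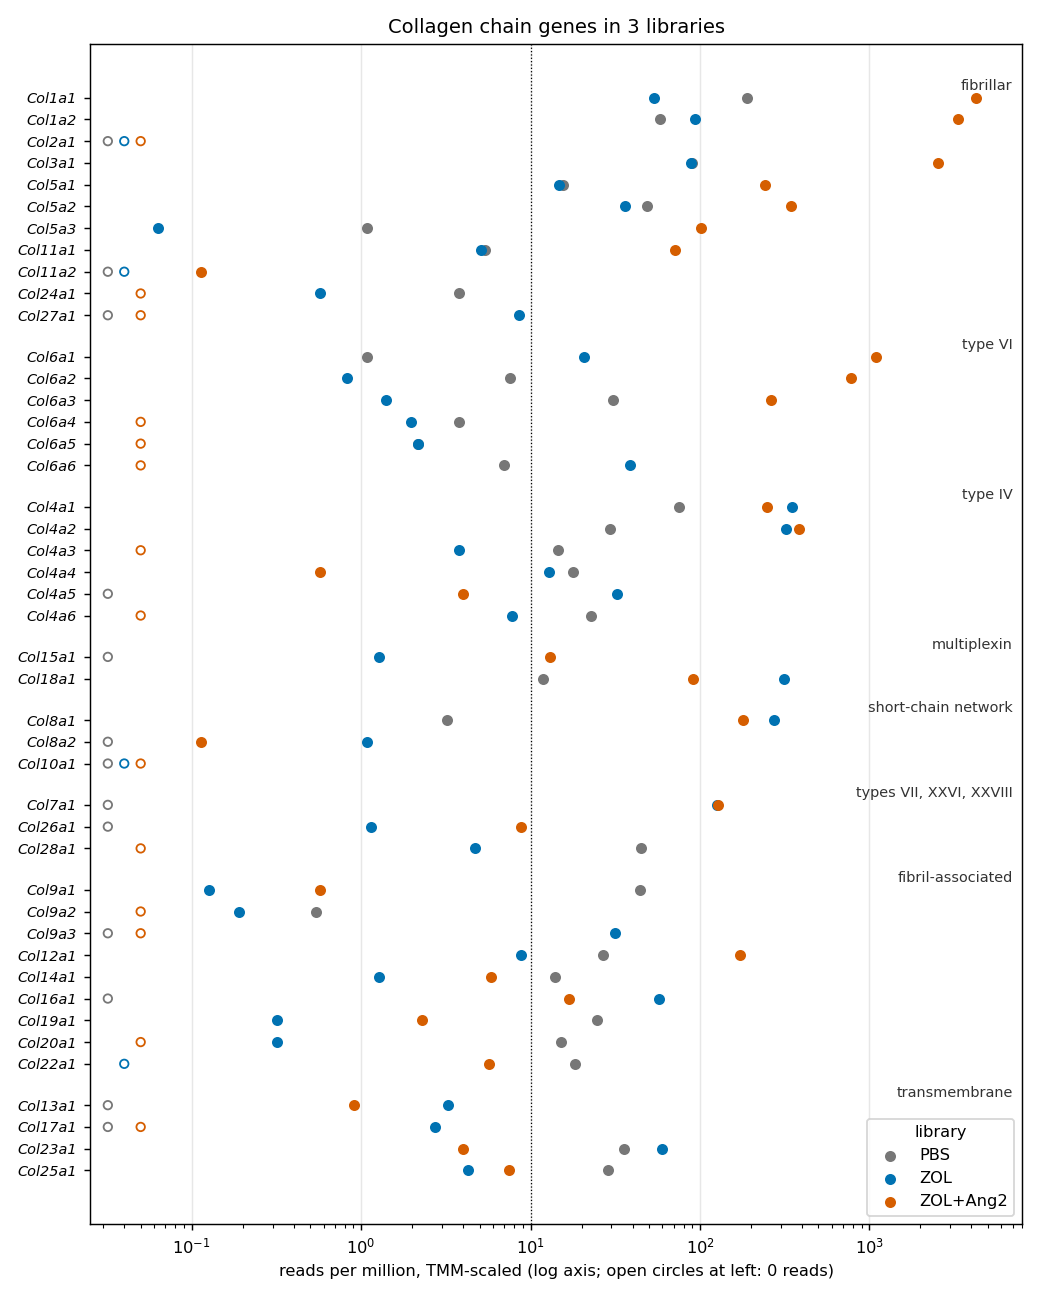
Level of each of the 44 collagen chain genes in CPM (log axis, genes grouped by class), 1 point per library, with open circles at the left edge for 0 reads and a dotted line at 10 CPM. ZOL+Ang2 is far to the right for Col1a1, Col1a2, Col3a1, the type V chains and Col6a1 to Col6a3, and ZOL is the rightmost for Col4a1, Col18a1 and Col8a1.

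ZOL+Ang2 against ZOL shows what differed when Ang2 was added to ZOL. Each of the 7 measured fibrillar chains and the type VI chains Col6a1, Col6a2 and Col6a3 were more than 4-fold higher in ZOL+Ang2, whereas the main type IV chains Col4a1 and Col4a2 lay within 2-fold. Col18a1, Col16a1, Col23a1, Col9a3, Col6a6 and the minor type IV chains Col4a4, Col4a5 and Col4a6 were lower. A gene counted as measured if its CPM averaged 10 or more across libraries, and as higher or lower at a 2-fold ratio of CPM plus 5. Of 26 measured collagen genes, 11 were higher, against 16.2% of all 10942 measured genes, and 8 were lower, against 24.8%. The higher count is thus 42.3% of the measured chains and the lower count 30.8%. The median log2 ratio was 0.19 over the measured chains and -0.02 over all measured genes, since the chains went both ways. Some chains passed the filter through 1 library alone and could hardly have gone the other way. Col5a3, Col11a1 and Col6a2 reached 10 CPM in ZOL+Ang2 alone, and Col4a5, Col6a6 and Col9a3 in ZOL alone. Among the 12 chains with at least 10 CPM in both libraries, 6 were higher, where 14.7% of such genes were, and 2 were lower, where 15.4% were.

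Type I collagen is the chief fibril of skin, bone and dura. Col1a1 (ENSMUSG00000001506; chromosome 11, 94936224 to 94953042; positions here and below in mm10 as annotated by GENCODE M21) stood at 189, 53.5 and 4280.4 CPM, and the ZOL+Ang2 level was 80.0-fold higher than in ZOL (95% counting interval 74.7 to 85.8). Col1a2 (ENSMUSG00000029661; chromosome 6, 4504814 to 4541544), its partner chain, stood at 58.1, 93.9 and 3333 CPM, 35.5-fold higher in ZOL+Ang2 than in ZOL (33.7 to 37.4). The ZOL+Ang2 value of each lay far above both others, and the order of PBS and ZOL for Col1a2 depended on the scaling, as given below. Col3a1 (ENSMUSG00000026043; chromosome 1, 45311538 to 45349706), which forms fine fibrils with type I in elastic tissues, stood at 89.9, 88.9 and 2535 CPM (28.5-fold higher than in ZOL, 27.0 to 30.1).

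Type V and type XI chains are minor components inside fibrils that set fibril diameter. Col5a1 stood at 15.6, 14.7 and 243 CPM (16.6-fold higher than in ZOL, 14.5 to 19.1). Col5a2 stood at 48.4, 36.3 and 344 CPM (9.46-fold higher, 8.65 to 10.4). ZOL+Ang2 was apart for both, and PBS and ZOL were close with TMM factors but over 2-fold apart on the deposited scale (log2 ratio of ZOL to PBS -1.41 and -1.74). Col5a3, a chain of restricted distribution, had 2 reads in PBS and 1 in ZOL against 102 CPM in ZOL+Ang2, and Col11a1, best known from cartilage, stood at 5.38, 5.10 and 70.8 CPM (13.9-fold higher, 11.0 to 17.8). These latter chains reached 10 CPM only in ZOL+Ang2, so their direction followed from the filter. A transcript of the other strand, Gm13372, shares 1.33% of the Col5a1 exon length and had 119 reads in ZOL+Ang2, against 2132 for Col5a1. The other fibrillar genes did not pass it. Col2a1, the collagen of cartilage, had no reads in any library, Col11a2 had 1 read in ZOL+Ang2, Col24a1 had 7, 9 and 0 reads, and Col27a1 had 134 reads (8.54 CPM) in ZOL alone.

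Type VI microfilaments are built from the products of Col6a1, Col6a2 and 1 longer chain, usually that of Col6a3. Col6a1 (ENSMUSG00000001119; chromosome 10, 76708792 to 76726168) stood at 1.08, 20.6 and 1088 CPM (52.9-fold higher than in ZOL, 47.3 to 59.3). Col6a2 (chromosome 10, 76595762 to 76623630) stood at 7.53, 0.828 and 779 CPM, from 13 reads in ZOL (941-fold higher, 549.9 to 1768). Col6a3 stood at 30.7, 1.40 and 264 CPM, from 22 reads in ZOL (189-fold higher, 124 to 301). In ZOL, then, Col6a1 had far more reads than its partners, and in ZOL+Ang2 each of the 3 exceeded 100 CPM. Col6a3 led the class in PBS, on 57 reads. Of the 3, Col6a2 alone passed 10 CPM in no library but ZOL+Ang2.

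Of the alternative long chains of type VI, Col6a6 was lower in ZOL+Ang2 than in ZOL. It reached 10 CPM only in ZOL, so that direction followed from the filter. It had 13, 603 and 0 reads, the ZOL count being 38.4 CPM, and its ZOL+Ang2 level was at least 112-fold lower than that of ZOL against a floor of 3 reads. Col6a4 and Col6a5 were below the filter (3.77, 1.98 and 0 CPM, and 2.15, 2.17 and 0 CPM), and their ratios of CPM plus 5 lay within 2-fold. A count of 0 in ZOL+Ang2 allows up to 0.342 CPM by counting error alone. These 3 genes lie side by side on chromosome 9 on 1 strand, with gaps of 27.9 and 28.8 kb.

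**Figure D3:**
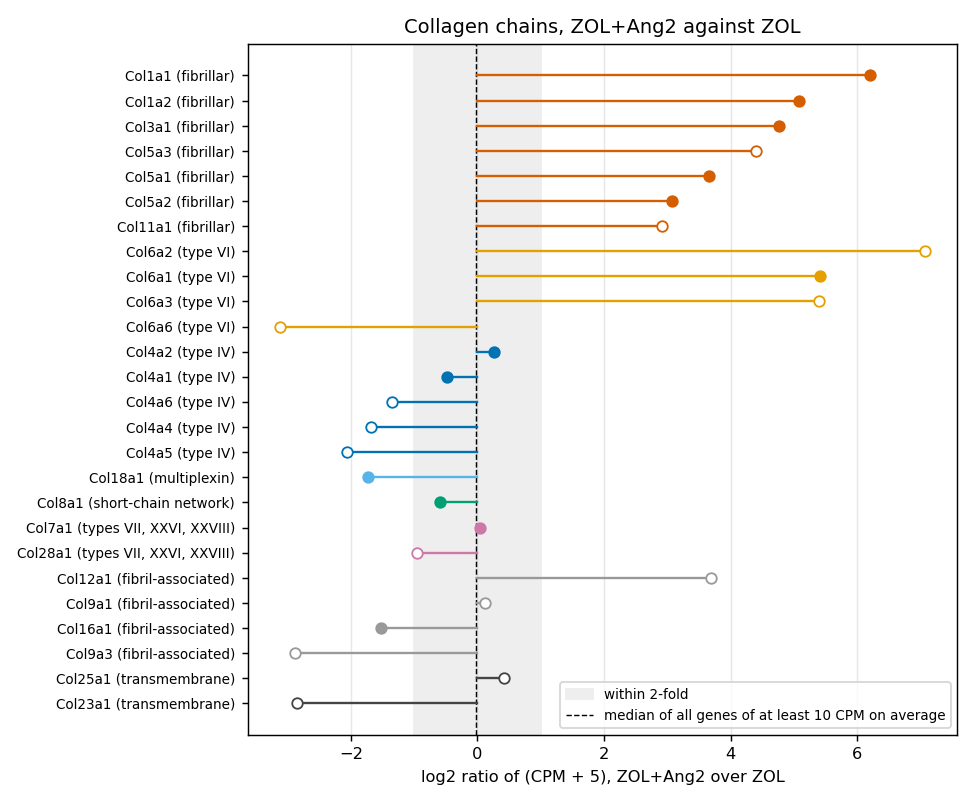
Log2 ratio of CPM plus 5 in ZOL+Ang2 over ZOL for the 26 measured collagen chains, grouped by class, with filled points for chains of at least 10 CPM in both libraries, open points for the rest, a grey band for ratios within 2-fold and a dashed line at the median of all measured genes (-0.02). All 7 fibrillar points lie right of the band and all 5 type IV points lie within or left of it.

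Basement membrane collagens had their own pattern. Col4a1 (ENSMUSG00000031502; chromosome 8, 11198423 to 11312826), a chain found in nearly every basement membrane, stood at 74.8, 347 and 247 CPM, 1.40-fold lower in ZOL+Ang2 than in ZOL (1.33 to 1.48). Col4a2 (ENSMUSG00000031503; chromosome 8, 11312805 to 11449287), its partner, stood at 29.6, 321 and 385 CPM, 1.20-fold higher in ZOL+Ang2 (1.15 to 1.25). Both were lowest in PBS, and neither differed by 2-fold between ZOL and ZOL+Ang2. The other type IV chains belong to specialised basement membranes such as that of the kidney glomerulus, and each stood below Col4a1 and Col4a2 in RPKM in every library. Col4a5 had no PBS reads and then 32.6 and 3.99 CPM (8.16-fold lower in ZOL+Ang2 than in ZOL, 5.79 to 11.8). It reached 10 CPM only in ZOL, so its direction followed from the filter. Col4a4 stood at 17.8, 12.9 and 0.570 CPM (22.7-fold lower in ZOL+Ang2 than in ZOL, 9.56 to 70.6). Col4a6 stood at 22.6, 7.77 and 0 CPM, at least 22.7-fold lower in ZOL+Ang2 than in ZOL. Col4a3, below the filter, stood at 14.5, 3.76 and 0 CPM. Among the 6 type IV genes, Col4a1 and Col4a2 held most of the reads in each library. They had 139 and 55 of 296 reads in PBS and 5451 and 5033 of 11379 in ZOL. In ZOL+Ang2 they had 2170 and 3374 of 5584.

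Other chains of vessel walls and basement membranes were low in PBS. Col18a1 (ENSMUSG00000001435; chromosome 10, 77052178 to 77166548), a basement membrane chain whose tail is the source of endostatin, stood at 11.8, 311 and 90.8 CPM, 3.43-fold lower in ZOL+Ang2 than in ZOL (3.18 to 3.70). Col15a1, its nearest relative, stood at 0 reads, 1.27 and 13.1 CPM and so went the opposite way (10.3-fold higher, 6.37 to 17.5), though it stayed below the filter. Col8a1, a short chain of subendothelial matrix, stood at 3.23, 273 and 180 CPM (1.52-fold lower, 1.43 to 1.61). Col8a2 did not exceed 1.08 CPM and Col10a1, of hypertrophic cartilage, had no reads in any library. Col7a1, the anchoring fibril chain of epithelial basement membranes, had no reads in PBS and then 125 and 128 CPM (1.02-fold higher in ZOL+Ang2 than in ZOL, 0.952 to 1.10).

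The fibril-associated chains, which coat fibrils, did not move as a class. Col12a1 stood at 26.9, 8.79 and 173 CPM (19.7-fold higher in ZOL+Ang2 than in ZOL, 16.6 to 23.6), in the direction of the type I chains whose fibrils its product coats. Col16a1 had no reads in PBS and stood at 57.3 and 16.8 CPM (3.42-fold lower, 2.87 to 4.10). Col9a3, a cartilage chain, had 497 reads (31.7 CPM) in ZOL and none in PBS or ZOL+Ang2, so its direction followed from the filter. Its partners Col9a1 and Col9a2 had 2 and 3 reads in ZOL, while Col9a1 stood at 44.1 CPM in PBS. Col9a3 shares 6.07% of its exon length with an exon of Tcfl5 on the other strand, which had 5 reads in ZOL. Col14a1, Col19a1, Col20a1 and Col22a1 stood at 14.0, 24.8, 15.1 and 18.3 CPM in PBS and below 6 CPM in the other libraries.

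Of the transmembrane chains, Col23a1 stood at 35.5, 59.6 and 3.99 CPM (14.9-fold lower in ZOL+Ang2 than in ZOL, 10.7 to 21.6) and Col25a1 at 28.5, 4.27 and 7.41. Col13a1 and Col17a1, the latter of hemidesmosomes, reached 3.25 and 2.74 CPM in ZOL and less elsewhere. Col28a1 stood at 44.7 and 4.71 CPM in PBS and ZOL with no reads in ZOL+Ang2, and Col26a1 at 0 reads, 1.15 and 8.78 CPM. In all, 12 of the 44 genes stayed under 10 CPM in each library, the highest of them at 8.78 CPM. Among the 32 others, 9 reached 10 CPM in PBS alone, 3 in ZOL alone and 4 in ZOL+Ang2 alone, and 8 reached it in all 3. The last are Col1a1, Col1a2, Col3a1, Col5a1, Col5a2, Col4a1, Col4a2 and Col18a1.

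The comparison of ZOL with PBS asks how the cells differed after ZOL. Col4a1, Col4a2, Col18a1 and Col8a1 were among the chains higher in ZOL. Col1a1, Col6a2, Col6a3 and Col12a1 were among those lower. Col4a1 was 4.64-fold higher (95% counting interval 3.92 to 5.53), Col4a2 10.8-fold higher (8.31 to 14.4), Col18a1 26.3-fold higher (17.4 to 42.0) and Col8a1 84.6-fold higher (38.8 to 230.5, from 6 PBS reads). Col7a1 and Col16a1, with no PBS reads, were at least 77.6-fold and 35.5-fold higher against a floor of 3 reads. Col1a1 was 3.53-fold lower (3.11 to 4.00). Col1a2 was 1.62-fold higher (1.33 to 1.98) with TMM factors but lower by median-of-ratios factors (log2 ratio -0.18) and on the deposited scale (7.76 against 5.01 RPKM). Col3a1, Col5a1 and Col5a2 lay within 2-fold with TMM factors, whereas in RPKM they went from 15.2 to 6.00, from 3.05 to 1.14 and from 8.38 to 2.51. Between PBS and ZOL, the scaling therefore set the direction of Col1a2 and the size of the other fibrillar differences. Of the 26 measured chains, 10 were higher, against 49.2% of all measured genes, and 8 were lower, against 29.4%. The counts thus lay at 38.5% and 30.8% of the chains, the former below the background and the latter near it. Of the 10 chains with at least 10 CPM in both, 3 were higher (Col4a1, Col4a2 and Col18a1), where 31.4% of such genes were, and 1 was lower (Col1a1), where 18.7% were. The counts depended on the scaling, with 8 higher and 12 lower under median-of-ratios factors and 6 higher and 14 lower on the deposited scale, which moved the median log2 ratio of all measured genes from 0.94 to -0.17 and -0.83. On the deposited scale Col4a1 was no longer 2-fold higher (log2 ratio 0.89 against 2.21 with TMM factors). Col4a2, Col18a1 and Col8a1 stayed over 2-fold higher, at smaller log2 ratios of 2.11, 3.39 and 5.08 against 3.44, 4.72 and 6.40. The 9 chains that reached 10 CPM in PBS alone had 26 to 83 reads there, in the library with the highest share of receptor and mitochondrial reads, and the part of these shares in their level was not tested.

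ZOL+Ang2 against PBS shares its libraries with the comparisons above and is given as values. Of the 26 measured chains, 17 were higher, against 44.2% of all measured genes, and 7 were lower, against 33.1%. Of the 10 with at least 10 CPM in both libraries, 10 were higher, where 32.3% of such genes were, and none was lower, where 19.9% were. In ZOL+Ang2 the level of Col1a1 exceeded that of PBS 22.7-fold (20.4 to 25.2), that of Col1a2 57.4-fold (47.5 to 69.9) and that of Col3a1 28.2-fold (24.2 to 33.0). Col5a2 was 7.09-fold higher (5.75 to 8.85), Col6a3 8.61-fold higher (6.62 to 11.4) and Col12a1 6.44-fold higher (4.86 to 8.72). These folds also depended on the scaling, which moved the median log2 ratio of all measured genes from 0.48 to -0.23 with median-of-ratios factors and to -0.91 on the deposited scale. On the deposited scale the log2 ratio went from 4.50 to 3.35 for Col1a1, from 5.84 to 4.69 for Col1a2, from 4.82 to 3.67 for Col3a1 and from 2.83 to 1.68 for Col5a2. It went from 3.11 to 1.96 for Col6a3 and from 2.69 to 1.54 for Col12a1, and Col4a1 fell short of 2-fold (0.58 against 1.73). With TMM factors Col4a2 was 13.0-fold above PBS (9.96 to 17.3) and near its ZOL level. The lower chains were Col9a1, Col28a1, Col4a4, Col4a6, Col6a6, Col23a1 and Col25a1.

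The balance between chains that join in 1 molecule was compared per length within each library. Type I collagen usually holds more Col1a1 than Col1a2 chains. The ratio of Col1a1 to Col1a2 in RPKM was 6.15 (95% counting interval 4.95 to 7.71), 1.08 (0.990 to 1.18) and 2.43 (2.39 to 2.47). The length used matters here. The deposited values divide Col1a2 reads by all its annotated exons, 12426 bases, while the transcript with its longest coding sequence is 5348 bases, and Col1a1 has 6563 and 5930. Per kilobase of those transcripts the ratios were 2.93, 0.514 and 1.16. A change of length multiplies the ratio by 1 constant in every library, so it bears on the level of the ratio and not on the order of the libraries. The interval for ZOL includes 1 on the former length.

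Col4a1 to Col4a2 was 2.24 (1.63 to 3.12), 0.960 (0.924 to 0.998) and 0.570 (0.540 to 0.602) in RPKM, and 2.46, 1.06 and 0.627 per transcript length. The interval of ZOL+Ang2 lay below that of ZOL. Col6a1 to Col6a2 was 47.2 in ZOL (27.2 to 89.7) and 2.65 in ZOL+Ang2 (2.57 to 2.74), and 23.9 and 1.34 per transcript length. Col6a3 to Col6a2 was 0.236 in ZOL+Ang2 (0.225 to 0.247) and 0.133 per transcript length, so Col6a3 had the fewest reads per length of the 3 in the library where all were abundant. Its transcript is 10106 bases against 3949 for Col6a2, and whether read coverage varied with transcript length was not tested. Col5a1 to Col5a2 was 0.364, 0.456 and 0.799, below 1 in each library on either length.

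**Figure D4:**
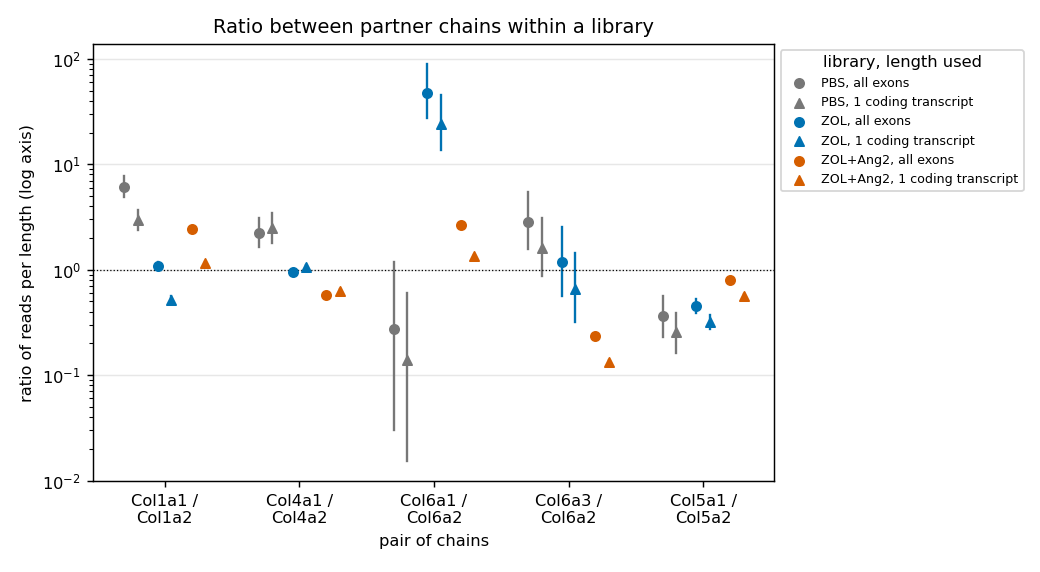
Ratio of reads per length between partner chains within each library (log axis), with circles for all annotated exons as in the deposited RPKM, triangles for 1 coding transcript, and vertical lines for 95% counting intervals. Col1a1 over Col1a2 lies at 6.15, 1.08 and 2.43 in PBS, ZOL and ZOL+Ang2 on the former length and at 2.93, 0.514 and 1.16 on the latter.

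Several collagen genes are neighbours in the genome, and 8 adjacent pairs lay within 200 kb of each other. Col4a1 and Col4a2 start head to head on chromosome 8 with 22 bases of their first exons overlapping. Col4a4 and Col4a3 do so on chromosome 1 with 71 bases between them, and Col4a6 and Col4a5 on chromosome X with 1308 bases. Col4a1 and Col4a2 were above 10 CPM in each library. Col4a4 and Col4a3 were both above it in PBS, divided in ZOL and both below it in ZOL+Ang2, and Col4a6 and Col4a5 were divided in PBS and ZOL and both below it in ZOL+Ang2. Col3a1 and Col5a2, tail to tail on chromosome 1 with 24.6 kb between them, were both higher in ZOL+Ang2 than in ZOL, and so were Col6a2 and Col6a1, 85.2 kb apart on 1 strand of chromosome 10. The longest glycine run had a median of 338 triplets over the 11 chains higher in ZOL+Ang2 than in ZOL and of 44 over the 8 lower chains, though the former ranged from 32 (Col12a1) to 344 (Col3a1) and the 7 fibrillar chains set that median. The direction of some chains in either group followed from the filter, as given above, and a link of run length with level was not tested.

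Genes that fold and modify collagen differed in both directions. The counts of this and the following lists stand against 16.2% higher and 24.8% lower among all measured genes in ZOL+Ang2 against ZOL, and 49.2% and 29.4% in ZOL against PBS. Of the 16 measured genes of 18 listed for this role, 6 were higher and 3 lower in ZOL+Ang2 than in ZOL (median log2 ratio 0.30), and 6 were higher and 2 lower in ZOL than in PBS. P4hb, a subunit of prolyl hydroxylase, stood at 494, 855 and 1029 CPM, and Ppib, a prolyl isomerase, at 110.3, 188 and 224, within 2-fold between ZOL and ZOL+Ang2. P3h1, a prolyl 3-hydroxylase, had no reads in PBS and stood at 1.08 and 71.0 CPM (65.6-fold higher in ZOL+Ang2, 40.6 to 113), and P4ha1, the catalytic prolyl 4-hydroxylase subunit, at 65.1, 13.6 and 93.4 (6.85-fold higher, 5.89 to 8.001). Serpinh1, the collagen chaperone, stood at 6.46, 6.31 and 23.1 CPM (3.67-fold higher, 2.87 to 4.72). The lower genes were Plod3, Colgalt1 and Crtap, of which Plod3, a lysyl hydroxylase, stood at 0, 57.5 and 13.3 CPM, and Colgalt1, a collagen galactosyltransferase, at 0.538, 138 and 40.4. On the deposited scale 5 were higher and 3 lower in ZOL+Ang2 than in ZOL, and 4 higher and 3 lower in ZOL than in PBS.

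Cleavage and crosslinking genes were divided. Of 6 measured of 12 listed, 2 were higher and 2 lower in ZOL+Ang2 than in ZOL, and 5 were higher and 1 lower in ZOL than in PBS. On the deposited scale 8 were measured, of which 4 were higher and 3 lower in ZOL than in PBS. The crosslinking enzymes Lox and Loxl1 stood at 3.23, 41.9 and 378 CPM and at 1.08, 33.6 and 173 CPM (9.03-fold higher, 8.30 to 9.84, and 5.15-fold higher, 4.66 to 5.69). The procollagen protease Bmp1 stood at 0, 373 and 129 CPM (2.89-fold lower in ZOL+Ang2, 2.71 to 3.08) and the protease enhancer Pcolce2 at 3.23, 108 and 33.0 (3.28-fold lower, 2.89 to 3.73). Pcolce stood at 181, 592 and 531 CPM. Of 4 measured of 10 collagen receptor genes, none was higher in ZOL+Ang2 than in ZOL and Itga1 was lower (115 CPM against 39.3), while Itgb1 stood at 32.8, 424 and 648 CPM, Ddr2 at 8.61, 140.5 and 137, and Itga2 at 47.9, 33.6 and 40.6. In ZOL against PBS, 2 of the 4 were higher and none lower with TMM factors, and 1 was lower on the deposited scale. Of 6 measured of 8 small leucine-rich proteoglycans, which bind fibrils, 4 were higher and 1 lower in ZOL+Ang2 than in ZOL. Bgn stood at 2.15, 119 and 729.7 CPM, Dcn at 6.46, 179 and 435, and Ogn at 2.15, 0.382 and 47.1. Fmod stood at 0, 43.8 and 0 CPM, at least 128-fold lower in ZOL+Ang2 than in ZOL. In ZOL against PBS, 4 of the 6 were higher and none lower, against 3 and 1 on the deposited scale.

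Markers of several cell types differed between the libraries together with the collagens, and their part in the collagen differences was not tested. The counts below are of ZOL+Ang2 against ZOL, where 16.2% of all measured genes were higher and 24.8% lower. The 12 fibroblast genes, none a collagen, summed to 387, 913 and 1598 CPM, and 6 of 9 measured were higher and none lower in ZOL+Ang2 than in ZOL. Pdgfra stood at 0, 17.9 and 103 CPM (5.77-fold higher in ZOL+Ang2 than in ZOL, 5.04 to 6.61), Mfap5 at 10.2, 0.828 and 116, and Ly6a, the most abundant, at 284, 617 and 691, while Dpt, Pi16 and Slc6a13 were at 0 in each library. Dcn and Lum belong to this list and to the proteoglycans. The 12 endothelial genes summed to 3015, 4250 and 1515 CPM, with 10 lower and none higher in ZOL+Ang2 than in ZOL, and Cldn5 at 1772, 1151 and 326 CPM and Esam at 154, 611 and 248. The 10 mural genes summed to 10.8, 878 and 378 CPM, with 2 of 6 measured higher (Pdgfrb and Cspg4) and 3 lower (Acta2, Myh11 and Abcc9), and Kcnj8 and Des at 0 in each library.

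Bone markers, listed because osteoblasts also make type I collagen, summed to 46.8, 329 and 199 CPM over 10 genes. Alpl stood at 0, 22.8 and 116 CPM and Dmp1 at 0, 276 and 34.6, 1 measured gene of 4 being higher and 1 lower, and Bglap2 and Mepe were at 0 in each library. Cartilage markers summed to 30.1, 41.5 and 6.27 CPM over 8 genes, with Acan, Comp, Matn1 and Snorc at 0 in each library, and the 1 measured gene, Sox9, at 0, 36.9 and 5.47 CPM. The 9 leukocyte genes summed to 1336, 125 and 1498 CPM, with 4 of 6 measured higher in ZOL+Ang2 than in ZOL and none lower, and Cd68 and Itgam at 0 in each library. The 6 erythroid genes summed to 190.5, 7.20 and 25165 CPM with 5 of 5 higher, led by Hba-a1 and Hbb-bs. The 8 carcinoma and epithelial genes summed to 641, 5596 and 5672 CPM, with 2 higher and 1 lower, and Krt8 at 165, 2451 and 2057 CPM and Krt18 at 151, 1911 and 1885. The 8 lymphatic genes summed to 298, 183 and 218 CPM, with 1 of 5 measured higher (Pdpn) and 2 lower (Flt4 and Itga9).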

How the data were processed

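Each of 3 pools, 1 per treatment, gave 1 library: cDNA was amplified at full length with a single-cell kit and tagged with a TruePrep kit, per the labels' protocols. Values are per gene in RPKM as deposited by the authors, and the values alone cannot tell RPKM from FPKM. The submitters' processing notes name HISAT2 (2.2.1), featureCounts (2.0.6), fastp and the build mm10, with no annotation release.

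Reads were recovered by multiplying RPKM by the summed exon length of GENCODE M21 and dividing by the worth of 1 read in that library. Within 0.01 of an integer lay 96.9% (PBS), 96.4% (ZOL) and 96.2% (ZOL+Ang2) of values above 0, and all values of 43 of the 44 collagen genes (Col17a1, below the filter, had one that was not). The 37 genes without a length were left out. TMM factors were 1.11, 0.946 and 0.953 (trims of 30% and 5%). Calls used the log2 ratio of CPM plus 5 among genes averaging at least 10 CPM, at 2-fold and with no test. A named fold is the plain CPM ratio with an exact 95% binomial interval given the reads of the pair, or a bound against a floor of 3 reads (1.61, 0.191 and 0.342 CPM). The calling steps were tested on simulated reads. Python 3.11.15, numpy 2.4.6, pandas 2.3.3 and scipy 1.17.1 were used.

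The members, lists and alternatives were chosen with earlier results of these data known. Chains of at least 10 CPM in any library are given by value. In the other lists the rule named the 2 most abundant genes and up to 2 at either end of the ZOL+Ang2 to ZOL ratio. Some of these are given in the counts only, and the gate genes, Serpinh1, Crtap, Pdgfra, Reln and genes at 0 were named after their values were seen. Exons of 13 of the 44 genes overlap another gene, by at most 6.07% of their exon length, and those reads could belong to either.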

Additional observations from a re-analysis of the deposited data

How the results depend on the processing

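In ZOL+Ang2 against ZOL, the 11 higher chains numbered 11 to 14 under each alternative (median-of-ratios factors, the deposited scale, a prior of 1 CPM, a filter of 1 CPM, thinning to the smallest library, a 4-fold call, and scaling and filter without PBS, the last added after seeing the data), and the 8 lower ones 6 to 9 except 4 at a 4-fold call. In ZOL against PBS, the deposited scale gave 6 higher and 14 lower, a filter of 1 CPM gave 13 lower and a 4-fold call 3 lower, against 10 and 8. In ZOL+Ang2 against PBS, a filter of 1 CPM gave 11 lower against 7. The lower filter tests 38 chains instead of 26 and the 4-fold call is stricter by construction. The deposited scale multiplies the plain ratio of every gene between 2 libraries by 1 constant. Among measured chains with reads in both libraries compared, none that was at least 2-fold apart changed direction under the other scalings, while Col1a2 and Col23a1 did between PBS and ZOL at under 2-fold. With the length of 1 coding transcript, added after seeing the data, the Col4a1 to Col4a2 ratio in ZOL went from 0.960 to 1.06, and the fibrillar share of summed level was 44.3%, 15.5% and 73.7% in PBS, ZOL and ZOL+Ang2. The other scalings of the gene lists were also added after seeing the data. Leaving out a replicate was not possible. No paired analysis was possible because each group is 1 library. Depth limits PBS most, where a count of 0 allows 1.61 CPM.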
